A study of Homo sapiens with 2 samples.

Results

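Solute carriers are the largest superfamily of membrane transport proteins, and their genes carry symbols that start with SLC, a family number and a letter. The members taken here were all genes whose probe symbol starts with SLC and a digit and that had a log2 ratio on at least 1 of the 2 arrays. SLC7A11, SLC7A5, SLC3A2, SLC10A2, SLC15A1 and SLC39A6 were left out. This gave 250 probes of 234 genes in 47 families, out of 10750 named genes with a value. Of the 234 genes, 228 encode transporters or their subunits. The other 6 were 4 antisense or pseudogene symbols and 2 genes named after a carrier they bind or regulate, SLC4A1AP and SLC2A4RG.

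The first array, of 2 colours, set ACC-MESO1 cells depleted of CD26 against control ACC-MESO1 cells, and the second set MSTO-211H cells that received CD26 in the pLNCX2 vector against control MSTO-211H cells. Both are established mesothelioma lines, a cancer of the lining of the chest cavity. CD26 is the cell surface peptidase encoded by DPP4. The labels name the depleting agent once as an siRNA and once as an shRNA, and do not say how the control cells were treated. Each comparison was 1 array, without a dye swap, with Cy5 on the control cells and Cy3 on the manipulated cells both times. A dye effect that belongs to a gene and a change shared by both lines therefore cannot be told apart. The log2 ratio of DPP4 was -3.92 after depletion and 5.51 after transfection. A ratio holds no expression level, so markers could not check the identity of the lines.

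Carriers move nutrients, ions, metals, vitamins and drugs across membranes by using ion gradients or exchange, in contrast to pumps that split ATP. Many sit in the plasma membrane, the SLC25 family sits mostly in the mitochondrial inner membrane, and the SLC35 family sits mostly in the Golgi and the endoplasmic reticulum. In cancer cells, glucose, lactate and amino acid carriers are known for supplying growth. Folate carriers bring in the antifolate drugs used against mesothelioma.

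Of the 234 members, 226 were measured after depletion and 192 after transfection, and 184 were measured both times. With 1 array a comparison there is no replicate, so no test, SD over replicates or p-value can be given. The size of a difference was judged by a log2 ratio of at least 1, which is 2-fold. The only repeat was between probes of the same gene. Pooled over the 13 members that had more than 1 probe after depletion, the SD between probes was 0.34, and over 10 such members after transfection it was 0.33. For all named genes with several probes these SDs were 0.42 and 0.45. Differences smaller than these SDs lie within the disagreement of probes.

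As a superfamily the carriers lay near the centre of both arrays. Their median log2 ratio was -0.020 in depleted ACC-MESO1 cells (95% order-statistic interval over genes -0.069 to 0.023), beside 0.012 for all named genes. It was -0.0092 in transfected MSTO-211H cells (-0.076 to 0.055), beside 0.0072 for all named genes. On the depletion array 7 members were 2-fold or more higher and 6 were 2-fold or more lower. The background was 3.31% of 10347 genes higher and 1.56% lower. On the transfection array 8 members passed 2-fold upward and 1 passed it downward, against 4.09% and 1.37% of 9359 genes. Past 2-fold in either direction stood 5.75% of members on the first array, beside 4.86% of all genes, and 4.69% on the second, beside 5.46%. These shares are near the background, so the superfamily did not stand out in number. The balance of directions rests on where each array is centred. Centring on ribosomal protein genes raises every ratio by 0.31 after depletion and 0.23 after transfection, so smaller negative values turn positive. It gives 16 members higher and 1 lower after depletion, beside 7.26% and 0.445% of all genes, and 16 higher and 0 lower after transfection, beside 7% and 0.609%. After depletion 107 of 226 members were above 0, beside 51.3% of all genes, and after transfection 94 of 192 were, beside 50.7%.

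**Figure D1:**
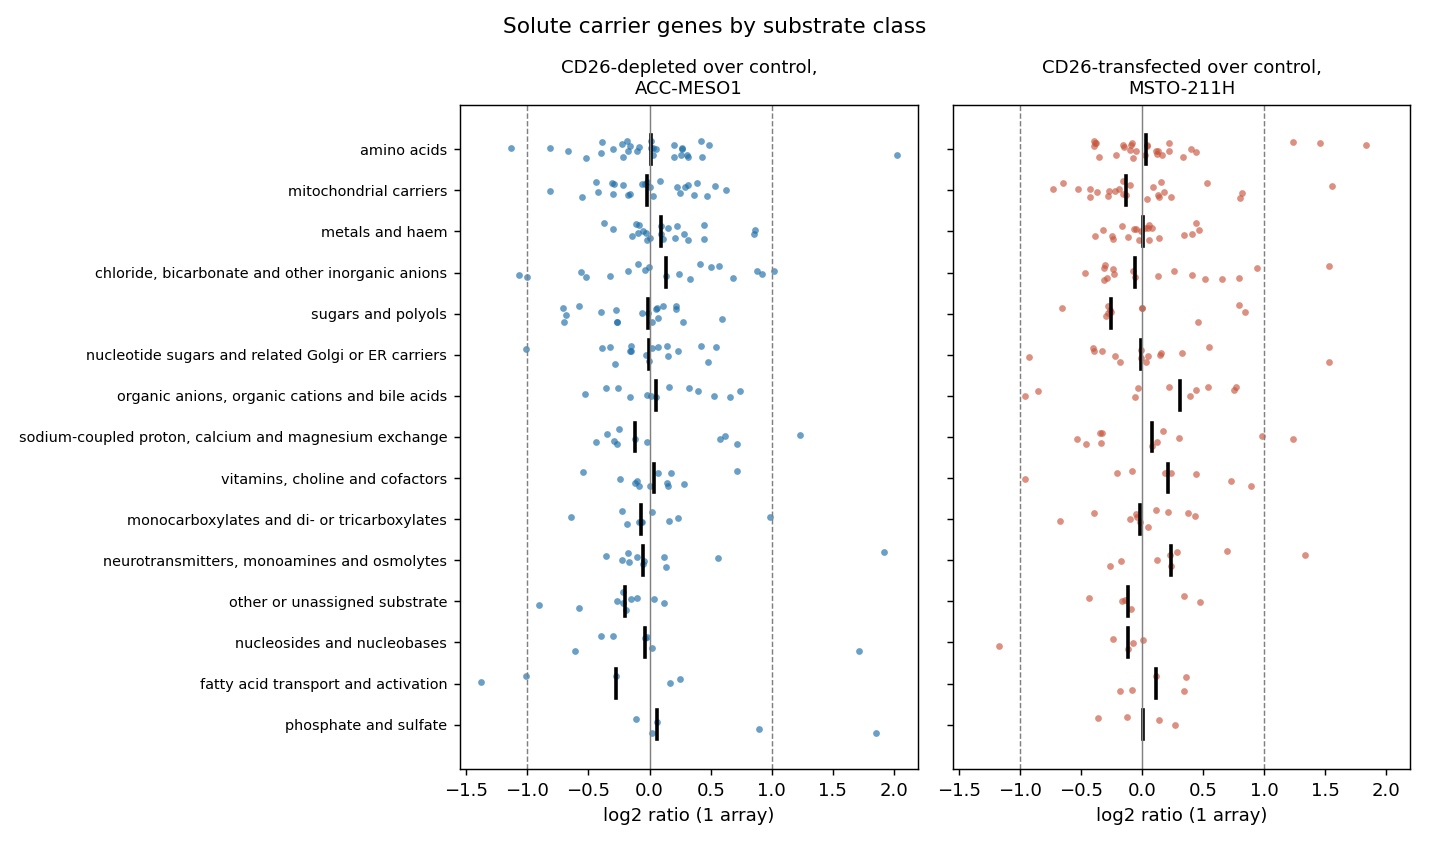
Log2 ratios of solute carrier genes by substrate class (rows; classes of at least 5 genes), CD26-depleted over control ACC-MESO1 cells on the left and CD26-transfected over control MSTO-211H cells on the right. Each point is a gene on 1 array, black bars are class medians and dashed lines mark 2-fold; the bars lie between -0.27 and 0.13 on the left and between -0.26 and 0.31 on the right.

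Of the 21 members past 2-fold on an array, 12 were measured on 1 array alone. The depletion array alone measured 42 members, of which 6 passed 2-fold upward and 3 downward. Among the 184 members measured on both arrays the depletion array had 1 and 3. Over all genes, 13.2% of those measured only after depletion passed 2-fold, against 3.56% of those on both arrays. On the transfection array 3 of 8 members without a partner value were at least 2-fold higher, beside 5 higher and 1 lower of the 184. The shares of all genes there were 31.8% and 4.28%. The channel intensities were not used here, so the part of dim signals in these values was not tested. All 21 members past 2-fold rested on a single probe, as did 221 of the 234 members.

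**Figure D2:**
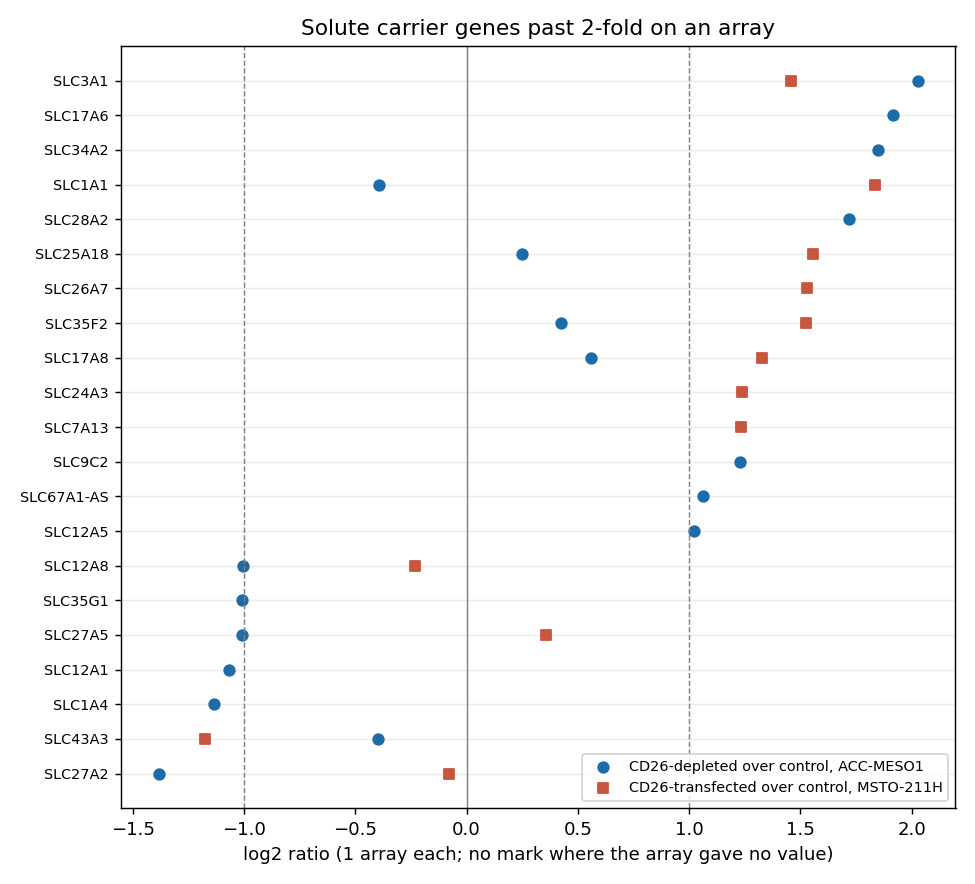
Log2 ratios of the 21 solute carrier genes past 2-fold on an array (rows), as blue circles for CD26-depleted over control ACC-MESO1 cells and red squares for CD26-transfected over control MSTO-211H cells. Dashed lines mark 2-fold; SLC3A1 is beyond the right line on both arrays, and 12 of the 21 genes have a mark for 1 array alone.

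Regulatory sequence is shown for 4 members that the account turns on. SLC1A1 had the highest ratio of all members in transfected cells and SLC1A4, of the same family, was 2-fold lower in depleted cells. SLC2A1 had opposite ratios on the arrays and SLC41A2 had high ratios on both. Each line runs from 250 bases before to 50 bases after the RefSeq start in GRCh38.p14, read 5′ to 3′ on the gene's strand. Capitals mark a match to 1 of 4 motifs searched on both strands. They were the AP-1 site TGANTCA, the E-box CACGTG, the sterol response element TCACNCCAC and the amino acid response element TGATGNAAT.
SLC1A1, chr9:4490218-4490517, plus strand: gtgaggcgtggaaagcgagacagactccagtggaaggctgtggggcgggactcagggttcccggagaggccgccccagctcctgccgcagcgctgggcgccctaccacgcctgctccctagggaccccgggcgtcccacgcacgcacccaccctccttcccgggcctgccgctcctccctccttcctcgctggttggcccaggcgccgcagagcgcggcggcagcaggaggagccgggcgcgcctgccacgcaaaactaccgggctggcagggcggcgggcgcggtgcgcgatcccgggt
SLC1A4, chr2:64988229-64988528, plus strand: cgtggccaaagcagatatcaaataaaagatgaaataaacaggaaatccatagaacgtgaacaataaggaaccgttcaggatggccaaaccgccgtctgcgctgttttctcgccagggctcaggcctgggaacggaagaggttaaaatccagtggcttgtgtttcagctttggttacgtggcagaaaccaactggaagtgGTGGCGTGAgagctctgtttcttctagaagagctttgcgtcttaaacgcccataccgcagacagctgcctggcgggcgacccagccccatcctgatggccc
SLC2A1, chr1:42958819-42959118, minus strand: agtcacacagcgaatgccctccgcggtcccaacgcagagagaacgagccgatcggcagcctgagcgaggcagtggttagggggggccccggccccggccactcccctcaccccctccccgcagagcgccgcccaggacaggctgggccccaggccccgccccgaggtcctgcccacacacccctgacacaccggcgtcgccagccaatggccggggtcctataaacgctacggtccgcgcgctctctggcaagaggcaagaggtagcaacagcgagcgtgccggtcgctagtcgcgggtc
SLC41A2, chr12:104958697-104958996, minus strand: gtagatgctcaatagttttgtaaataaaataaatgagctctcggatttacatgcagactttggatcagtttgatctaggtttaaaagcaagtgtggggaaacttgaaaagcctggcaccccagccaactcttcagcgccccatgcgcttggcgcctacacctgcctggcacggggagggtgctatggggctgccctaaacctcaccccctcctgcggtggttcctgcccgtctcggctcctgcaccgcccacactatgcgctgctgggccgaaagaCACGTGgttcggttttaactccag
The SLC1A4 window held a sterol response element on the reverse strand and the SLC41A2 window held an E-box. None of the 4 motifs was found in the windows of SLC1A1 and SLC2A1. The promoter table matched 187 members. The AP-1 site was in 9 of these (4.81%), beside 7.76% of 27305 promoters of the same length. The E-box was in 18 (9.63%), beside 7.43%. The sterol response element was in 2 (1.07%), SLC1A4 among them, beside 1.15%. The amino acid response element was in 1 (0.535%), beside 1.02%. A match describes the letters only, and no binding data were used here.

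Amino acid carriers included the highest member of the superfamily on each array. SLC3A1, the heavy subunit of the cystine and dibasic amino acid transporter of kidney, was 4.07-fold higher in depleted cells (log2 ratio 2.03) and 2.75-fold higher in transfected cells (1.46). It was the highest member on the depletion array, at rank 33 of all 10347 genes, and the one member past 2-fold on both arrays. SLC7A9, its light-subunit partner in that transporter, had -0.18 and -0.054. SLC7A13, another light subunit that pairs with it and carries aspartate, glutamate and cystine, had 1.23 in transfected cells and no value on the depletion array.

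SLC1A1, a sodium-coupled glutamate and cysteine importer, was 3.57-fold higher in transfected MSTO-211H cells (log2 ratio 1.84) and had -0.39 in depleted ACC-MESO1 cells. Its values have opposite signs, but the second lies within the 0.42 SD between probes of a gene. SLC1A3, a glial glutamate importer, was at -0.81 and -0.15. SLC1A4, an exchanger of alanine, serine and other small neutral amino acids, was 2.19-fold lower in depleted cells (-1.13) and had no value on the second array. Its close relative SLC1A5, the main glutamine exchanger of many tumour cells, stood at 0.26 and -0.088. The SLC1 family had the lowest median of the 17 families with at least 5 genes on the depletion array (-0.35, interval -1.13 to 0.26 over 6 genes). Of its 6 genes 4 were below 0, beside 5042 of all 10347 genes.

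The glutamine importers of the SLC38 family were also largely below 0 in depleted cells, at 4 of 5 genes with a median of -0.22, which becomes 0.086 with ribosomal centring. SLC38A1 had -0.52 and SLC38A2 had -0.22 there, against the highest value of the family, 0.012 for SLC38A5. In transfected cells the same 5 genes ran from -0.39 to 0.16. The SLC7 family, which includes the light subunits, had a median of 0.20 after depletion, with SLC7A7 (0.49) and SLC7A6 (0.43) the highest. Of its 7 genes 5 were above 0 there, beside 51.3% of all genes. SLC16A10, a carrier of aromatic amino acids, had -0.67 and 0.13. Over the whole class of amino acid carriers the median was 0.014 for 30 genes after depletion and 0.034 for 28 genes after transfection. The depletion array had 1 gene past 2-fold each way, close to the 4.86% of all genes. The transfection array had 3 higher and 0 lower, beside 4.09% and 1.37% of all genes.

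Carriers of glutamate, aspartate or cystine recurred among the high ratios, and were put together as a group after their values were seen. The group thus gets no test and supports nothing by itself. It took the plasma membrane carriers, the heavy subunit SLC3A1 with its light subunits, and the vesicular glutamate transporters that load synaptic vesicles. It also took the mitochondrial glutamate carriers, and lacked those left out at the start. SLC17A5, of the same family as the vesicular glutamate transporters, was not put in the group and had -0.26 and -0.44. Of the 14 measured, 13 had a value on each array. In transfected cells 5 of 13 passed 2-fold upward and 0 downward, with a median of 0.44 and 8 above 0. Of all genes there, 4.09% were higher, 1.37% lower and 50.7% above 0. These 5 were SLC1A1 (1.84), SLC25A18 (1.56), SLC3A1 (1.46), SLC17A8 (1.33) and SLC7A13 (1.23), out of the 8 members of the whole superfamily at least 2-fold higher there. In depleted cells 2 of 13 were at least 2-fold higher, SLC3A1 (2.03) and SLC17A6 (1.92), beside 3.31% of all genes, and the median was 0.056, beside 0.012.

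Within that group relatives lay close on one array and apart on the other, or apart on both. The vesicular transporters SLC17A7, SLC17A8 and SLC17A6 had 0.12, 0.56 and 1.92 in depleted cells. In transfected cells SLC17A7 had 0.24, SLC17A8 had 1.33 and SLC17A6 had no value. The mitochondrial glutamate carrier SLC25A18 had 0.25 and 1.56, and its paralog SLC25A22 had 0.47 and -0.13. The aspartate and glutamate exchangers of mitochondria, SLC25A12 and SLC25A13, had -0.22 and -0.30 after depletion. After transfection they differed by nearly 1 log2 unit, at 0.53 for SLC25A12 and -0.43 for SLC25A13.

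**Figure D3:**
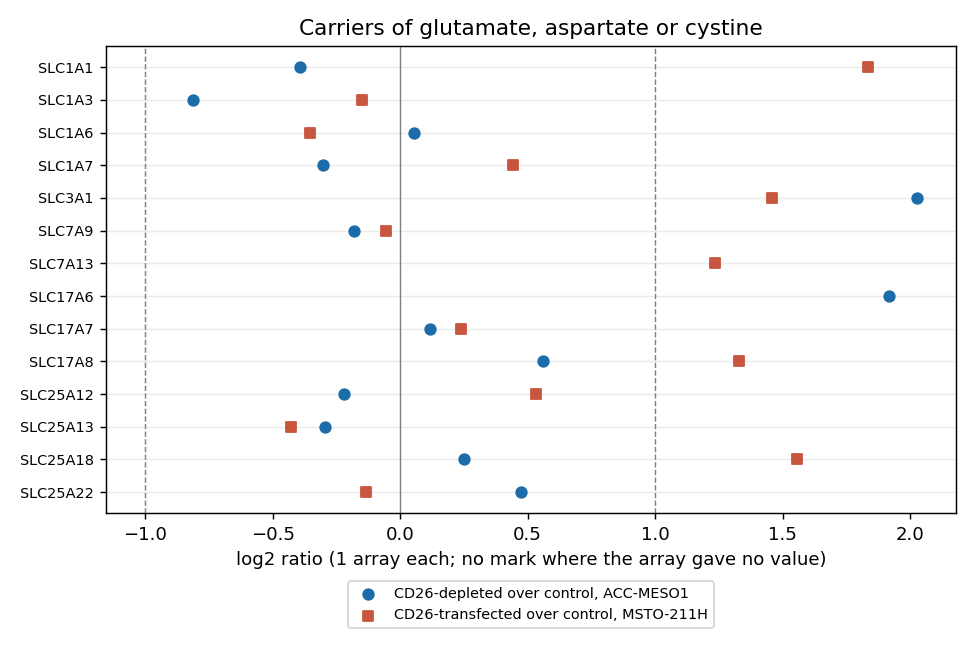
Log2 ratios of 14 carriers of glutamate, aspartate or cystine (rows), as blue circles for CD26-depleted over control ACC-MESO1 cells and red squares for CD26-transfected over control MSTO-211H cells; dashed lines mark 2-fold. In the transfected cells 5 genes lie past the right line and none past the left one.

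Glucose carriers included 1 gene with opposite ratios past 0.5 in size. SLC2A1, the main basal glucose importer of most cells, was at 0.60 in depleted ACC-MESO1 cells and at -0.66 in transfected MSTO-211H cells, which is 1.51-fold higher and 1.58-fold lower. With ribosomal centring the second value is -0.43, short of 0.5 in size. Of the 6 importers of the SLC2 family with no value on the second array, 3 were low after depletion, with -0.71 for SLC2A10, -0.68 for SLC2A3 and -0.58 for the insulin-responsive SLC2A4. The other 3 were above 0, with 0.27 for SLC2A5, 0.11 for SLC2A11 and 0.068 for SLC2A13. SLC2A3 and SLC2A14 are near-identical copies, and SLC2A14 read -0.016 and -0.28. SLC2A6, a lysosomal hexose carrier, was highest of the sugar class in transfected cells (0.84), followed by the intestinal sodium-glucose transporter SLC5A1 (0.79). Over the sugar class the medians were -0.016 for 19 genes and -0.26 for 11 genes. On either array 0 genes were past 2-fold, beside 4.86% and 5.46% of all genes, and so few genes cannot set the class apart.

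Lactate leaves glycolytic cells through SLC16A3 and passes either way through SLC16A1, and both need the membrane chaperone basigin, encoded by BSG. SLC16A3 had -0.65 in depleted cells and 0.050 in transfected cells. SLC16A1 had -0.089 and 0.21, and BSG had -0.19 and -0.38. SLC5A8, a sodium-coupled importer of short monocarboxylates, was just short of 2-fold in depleted cells (0.99) and at -0.10 in transfected cells. SLC16A5 was the lowest of the carboxylate class after transfection (-0.68) and SLC13A5, the citrate importer, the highest (0.43). The class had medians of -0.068 over 10 genes and -0.016 over 11. Past 2-fold were 0 genes, beside 4.86% and 5.46% of all genes, and so few genes cannot set the class apart.

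Mitochondrial carriers, 25 genes on each array, had medians of -0.023 after depletion and -0.13 after transfection. The dicarboxylate carrier SLC25A10 was lowest in depleted cells (-0.82), followed by the ADP/ATP exchanger SLC25A4 (-0.55), and the peroxisomal family member SLC25A17 was highest (0.63). SLC25A5 and SLC25A6, paralogs of SLC25A4 close enough to share probe signal, had 0.22 and 0.028 there. In transfected cells SLC25A18 was the one carrier of the 25 past 2-fold, a share of 4%, near the 5.46% of all genes. SLC25A21 (0.82) and SLC25A27 (0.80) came next, and SLC25A29, a carrier of basic amino acids, was lowest (-0.73), followed by the acylcarnitine carrier SLC25A20 (-0.65). The citrate carrier SLC25A1, which feeds fatty acid and sterol synthesis, was low on both arrays at -0.43 and -0.53.

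Fatty acid carriers of the SLC27 family activate fatty acids with coenzyme A as they take them in. SLC27A2, a very long chain acyl-CoA synthetase, was the lowest member of the superfamily in depleted cells (log2 ratio -1.38) and was at -0.079 in transfected cells. SLC27A5, the bile acid and fatty acid ligase of liver, had -1.01 and 0.36. The remaining 3 genes, SLC27A1, SLC27A3 and SLC27A4, ran from -0.27 to 0.25 after depletion and from -0.18 to 0.35 after transfection. Thus 2 of 5 genes of this class were at least 2-fold lower in depleted cells, beside 1.56% of all genes. With ribosomal centring SLC27A2 alone was (-1.07), and SLC27A5 was at -0.70.

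Of the zinc, iron and copper carriers, 0 of the 22 measured after depletion and 0 of the 20 measured after transfection were past 2-fold. With 4.86% and 5.46% of all genes past it, so few genes cannot set the class apart. The medians were 0.093 and 0.0072. The zinc exporter SLC30A1, whose gene is induced by zinc, had the highest depletion ratio of the class (0.87) and 0.34 after transfection. SLC39A11, a zinc importer, had 0.85 and 0.47, and the second value was the highest of the class. The lowest were SLC39A4, the intestinal zinc importer, in depleted cells (-0.38) and SLC39A10 in transfected cells (-0.38). Among iron genes, SLC11A2, the iron importer, had -0.053 and 0.41, and the transferrin receptor gene TFRC had 0.40 and 0.078. Of the SLC39 importers 8 of 11 were above 0 after depletion and 3 of 9 after transfection, beside 51.3% and 50.7% of all genes. These counts rest on where each array is centred, and with ribosomal centring more of the importers are above 0 on both arrays.

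Of 19 carriers of chloride, bicarbonate and other anions, 1 was at least 2-fold higher and 2 lower after depletion, beside 3.31% and 1.56% of all genes. After transfection 1 of 17 was higher and 0 lower, beside 4.09% and 1.37%. So few genes cannot set the class apart. SLC12A1, the kidney sodium-potassium-chloride importer, was 2.10-fold lower (-1.07), SLC12A8 just past 2-fold lower and SLC12A5, the potassium-chloride exporter of neurons, 2.03-fold higher (1.02). SLC12A1 and SLC12A5 had no value on the transfection array and SLC12A8 had -0.23 there. SLC12A2, the widely expressed relative of SLC12A1, had 0.24 and 0.65. The bicarbonate importer SLC4A7 (0.92) and the anion exchanger SLC4A3 (0.88) were close to 2-fold in depleted cells and had 0.13 and -0.31 in transfected cells. SLC26A7, an anion exchanger, was 2.89-fold higher in transfected cells (1.53), with no value on the first array, and SLC12A7 (0.94) was next. SLC4A11 was the lowest of the class there (-0.47) and had -0.56 after depletion. The class medians were 0.13 over 19 genes and -0.061 over 17.

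Exchangers of sodium for protons or calcium, and magnesium carriers, had medians of -0.12 and 0.082 over 11 genes each. SLC9C2, of the sodium-proton exchanger family, was 2.34-fold higher in depleted cells (1.23), and SLC24A3, a potassium-dependent sodium-calcium exchanger, was 2.36-fold higher in transfected cells (1.24). Each had a value on that array alone. SLC41A2, a magnesium carrier, had 0.72 and 0.98, while its relative SLC41A3 had 0.61 and -0.46. The lowest were SLC8B1, the mitochondrial sodium-calcium exchanger, after depletion (-0.44) and SLC8A2 after transfection (-0.53). For phosphate, SLC34A2, the sodium-phosphate importer of lung and gut epithelium, was 3.60-fold higher in depleted cells (1.85) and had no value on the second array. The widely expressed phosphate importer SLC20A1 had 0.90 and 0.27.

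Past 2-fold were 1 of 7 nucleoside and nucleobase carriers after depletion and 1 of 5 after transfection. The shares of all genes were 4.86% and 5.46%. SLC28A2, a sodium-coupled purine nucleoside importer, was 3.29-fold higher in depleted cells (1.72) and had no value on the second array. SLC43A3, a purine nucleobase carrier, was the one member of the superfamily at least 2-fold lower in transfected cells (-1.17, 2.26-fold), and had -0.40 in depleted cells. The equilibrative nucleoside carrier SLC29A1, which also takes up nucleoside drugs, had -0.30 and -0.078. SLC29A2 had the lowest ratio of the class after depletion (-0.61).

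Among vitamin and drug carriers, SLC19A1, the reduced folate carrier that takes up antifolates, was near 2-fold lower in transfected cells (-0.95) and at the array centre in depleted cells. The thiamine carrier SLC19A2 had -0.55 after depletion. Of the ascorbate importers, SLC23A2 had 0.71 in depleted cells and no value in transfected cells, and SLC23A1 had 0.14 and 0.89. In the SLC10 and SLC22 families of organic ion carriers 0 of 13 and 0 of 10 genes were past 2-fold, beside 4.86% and 5.46% of all genes. So few genes cannot set the class apart. The carnitine importer SLC22A5 was highest after depletion (0.74, with no second value) and SLC22A14 lowest (-0.53). After transfection the range ran from SLC22A16 (0.77) to SLC22A17 (-0.96), and the organic cation carrier SLC22A3 had -0.85. Of the classes with at least 5 genes, this one had the highest median on that array (0.31, interval -0.85 to 0.75 over 10 genes).

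Nucleotide sugar carriers feed glycosylation and sulfation in the Golgi, and their medians were -0.0061 over 17 genes and -0.010 over 15. SLC35F2, a member with no such role established, was 2.88-fold higher in transfected cells (1.53) and had 0.42 in depleted cells. SLC35G1 was 2.01-fold lower in depleted cells (-1.01) and had no second value. SLC35B3, which brings the sulfate donor into the Golgi, was highest of the class in depleted cells (0.55) and lowest in transfected cells (-0.93).

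In the class of neurotransmitter, monoamine and osmolyte carriers, those other than for glutamate were short of 2-fold on both arrays. With 4.86% and 5.46% of all genes past it, so few genes cannot set them apart. SLC18A2, the vesicular monoamine carrier, was the highest of them in transfected cells (0.69). The betaine carrier SLC6A12 was the lowest of the class on both arrays (-0.36 and -0.26). The dopamine carrier SLC6A3 had the probes that differed most among members on the depletion array, at -0.84 and 0.39 in depleted cells. Among carriers with another or no assigned substrate, the vesicular polyamine carrier SLC18B1 had -0.91 and 0.47. The antisense symbol SLC67A1-AS was past 2-fold higher in depleted cells (1.06), and the gene it lies opposite, SLC67A1, had -0.15.

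Because CD26 was lowered in one line and raised in the other, genes that track it would differ in sign between the arrays. Among the 184 members measured on both, 88 had opposite signs (47.8%), beside 46.9% of 8956 genes. Past 0.5 in size on both arrays, 2 members had opposite signs, SLC2A1 and SLC35B3, beside 2.4% of all genes. Both were higher in depleted and lower in transfected cells, opposite to DPP4, and 0 members had the same directions as DPP4 at that size. With ribosomal centring the members were SLC35B3 and, in the directions of DPP4, SLC18B1 (-0.60 and 0.70) and SLC27A5 (-0.70 and 0.59). Past 1 on both arrays, 0 members had opposite signs, beside 0.19% of all genes, and 1 had the same sign, beside 0.335%. With the same sign past 0.5 there were 5 members, beside 3.27% of all genes, and all 5 were higher on both arrays. They were SLC3A1 (2.03 and 1.46), SLC17A8 (0.56 and 1.33), SLC41A2 (0.72 and 0.98), SLC10A3 (0.65 and 0.54) and SLC26A11 (0.56 and 0.52). With ribosomal centring there were 17 with the same sign. That centring raises every gene on both arrays, and the shares of all genes by sign were not counted with it. Its counts by sign therefore cannot set the carriers apart. Across the 184 genes, which share a dye orientation, Pearson's r between the arrays was 0.17 and Spearman's rho 0.10, as a description. Over all 8956 genes they were 0.063 and 0.078.

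**Figure D4:**
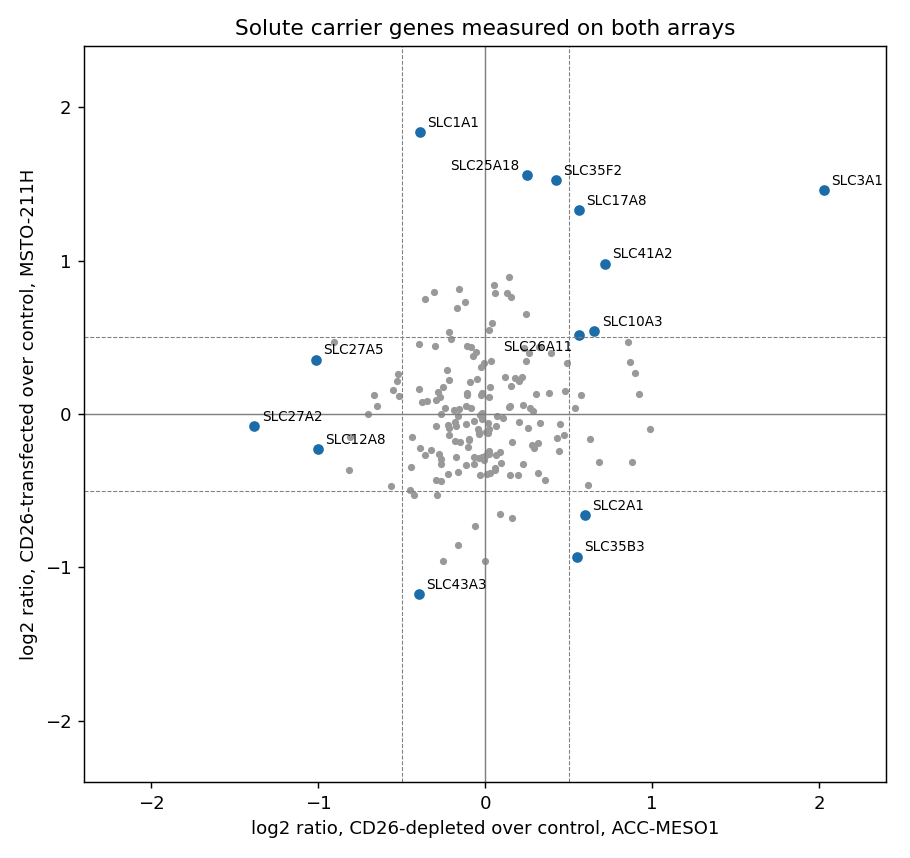
Log2 ratios of the 184 solute carrier genes measured on both arrays, CD26-depleted over control ACC-MESO1 cells on the horizontal axis and CD26-transfected over control MSTO-211H cells on the vertical axis; dashed lines mark a ratio of 0.5 in size. Named points are past 0.5 on both arrays or past 1 on either, with 5 in the upper right corner, 2 in the lower right and none in the corner of DPP4 (upper left).

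By family number, the interval of the median over genes included 0 for all 17 families with at least 5 genes on the depletion array. It did so for all 15 on the transfection array too. Up to 8 genes that interval is the full range, so it leaves out 0 only where every gene has the same sign. For such small families it could therefore hardly set a family apart. The medians ran from -0.35 for SLC1 and -0.27 for SLC27 to 0.33 for SLC26 after depletion. After transfection they ran from -0.27 for SLC2 and -0.26 for SLC4 to 0.28 for SLC26 and 0.41 for SLC12. Families were taken by symbol, so SLC2 includes SLC2A4RG (-0.32 there) and SLC4 includes SLC4A1AP (0.49 there), which are not transporters. Medians without these genes and the pseudogene symbols were not taken, so the order of the families can rest on them. Among families with at least 5 genes on each array, the SLC26 family of anion exchangers alone had a median of at least 0.25 on both. It includes the pseudogene symbol SLC26A10P. Above 0 were 4 of 5 and 4 of 6 of its genes, beside 51.3% and 50.7% of all genes.

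Of genes for proteins that hold or regulate carriers, 0 of 6 after depletion and 0 of 7 after transfection were past 2-fold. With 4.86% and 5.46% of all genes past it, so few genes cannot set them apart. The scaffold gene NHERF2, which binds sodium-proton exchangers, had 0.79 and 0.24, and NHERF1 had -0.25 and -0.20. The kinase genes OXSR1 and STK39, which act on chloride carriers, had 0.33 and -0.19 in depleted cells and 0.11 and -0.24 in transfected cells.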

How the data were processed

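On 2 arrays of 2 colours, gene expression was measured, 1 for each cell line, with total RNA extracted with TRIZOL and amplified with an amino allyl kit, per the labels' protocols. The deposited values are log2 ratios that the authors normalized, given as manipulated over control cells per the labels. The labels do not name the background correction, the normalization or the rule for a missing value. Both arrays had a probe median of 0. Of 24267 probes, 19622 and 17737 had a value.

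Probe symbols came from the platform annotation and were updated through RefSeq of GRCh38.p14, which renamed 27 members. One member, SLC35E2, had several candidates and was left under its listed symbol. The mean over its probes was taken for each gene, without an intensity filter. Substrate classes were assigned by family and gene. The members, classes and lists were chosen with earlier results of these data known, and 3 assignments were corrected by gene name after the member list was read. Genes named were those at least 2-fold on an array, those past 0.5 on both, and the extremes of classes with at least 5 genes. The remaining named genes were picked for their known roles, or as relatives of those, after values were seen.

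No test was possible with 1 array for each comparison, whose number limits the precision. Counts and medians stand beside those of all named genes. The 95% interval of a median, the full range up to 8 genes, covers the spread between genes only. The median step was also run on values drawn from each array with a known shift added. No rule for passing was set on the shift found, so this run could not fail. Python 3.11.15, pandas 2.3.3, numpy 2.4.6, scipy 1.17.1 and matplotlib 3.10.9 were used.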

Additional observations from a re-analysis of the deposited data

How the results depend on the processing

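Counts past a threshold depended on it. With a log2 ratio of at least 0.5 in place of 1, 28 members were higher and 24 lower in depleted cells, and 26 higher and 11 lower in transfected cells. All genes had 12.8% and 9.8%, and 13.1% and 9.4%. At 1.5 there were 4 higher and 0 lower in depleted cells, and 4 higher and 0 lower in transfected cells, beside 1.21% and 0.213%, and 1.51% and 0.235%, of all genes. At 1 on both arrays, 0 members had opposite signs and 1 the same sign. Centring on ribosomal protein genes moved all genes up by 0.31 (depletion) and 0.23 (transfection). It gave 16 members at least 2-fold higher and 1 lower in depleted cells, and 16 higher and 0 lower in transfected cells. It also gave 17 with the same sign past 0.5, for which the share of all genes was not counted. Among genes on both arrays, 1 member was higher and 3 lower in depleted cells, and 5 were higher in transfected cells. With each chromosome centred on its own median, an alternative chosen after seeing the data, 3 members were at least 2-fold lower in transfected cells. SLC19A1 (-1.04) and SLC22A17 (-1.16) joined SLC43A3. The shares of all genes were not counted with that centring, so its counts cannot set the carriers apart. One member kept opposite signs past 0.5 with that centring, SLC2A1, since SLC35B3 was at 0.49 in depleted cells. A common spread for both arrays, the other rules for probes and symbols as listed kept these counts within 1.5 times, and the superfamily and class medians, taken relative to the median of all genes, stayed within their intervals in the alternatives run. Ribosomal centring cannot change such a difference, and it put the superfamily medians themselves at 0.29 and 0.22, outside their intervals. Of the 22 values past 2-fold, 10 could be recomputed over genes on both arrays, 19 with symbols as listed and all 22 otherwise. No recomputed value changed sign, and 6 were short of 2-fold with ribosomal centring. No paired analysis was possible because each group is 1 array. Signal over background could not be judged without intensities.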

Other observations

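Other membrane transport genes were read from lists of the same arrays. ABC transporters pump lipids and drugs with ATP, but the list was taken by symbol and not all its genes encode pumps. Its median log2 ratio was -0.15 over 28 genes in depleted cells and -0.073 over 26 genes in transfected cells. Of these, 9 and 12 were above 0, beside 51.3% and 50.7% of all genes. ABCA3, the surfactant lipid pump, was at least 2-fold higher in depleted cells (1.73) and had 0.046 in transfected cells. ABCA7 had -1.16 and 0.26, and the mitochondrial ABCB6 had -0.37 and -1.49. Of the SLCO organic anion carriers, SLCO2B1 was at least 2-fold lower in transfected cells (-1.03) and had 0.24 in depleted cells.

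Aquaporins, the water channels, had 3 of 8 measured genes past 2-fold in transfected cells, beside 5.46% of all genes. AQP1, the water channel of mesothelium and endothelium, was higher (1.04), and AQP3 (-1.02) and AQP11 (-1.40) were lower. In depleted cells these 3 had -0.13, -0.37 and -0.48. None of the 10 listed genes, the antisense symbol AQP4-AS1 among them, was past 2-fold there, beside 4.86% of all genes. Among V-ATPase subunits, the proton pump of lysosomes, ATP6V1G3 had 2.72 and ATP6V1E2 had 1.12 in transfected cells, and ATP6V1B1 had 1.07 in depleted cells. ATP6V1E2 had -0.56 in depleted cells. The medians of the 20 and 19 subunits were -0.0056 and 0.015. The Na/K-ATPase subunit ATP1B4 had 1.13 in depleted cells and no value in transfected cells, while ATP1B1 had 0.20 and -0.14 and ATP1B3 had 0.34 and -0.32.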
